A study of Mus musculus with 187 samples.

Results

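The 4 adult globin genes of the mouse, Hba-a1, Hba-a2, Hbb-bs and Hbb-bt, and Alas2 were followed through all the heart libraries, 98 male and 89 female, of an inbred mouse panel. These 5 genes were chosen by name from the 36558 genes of the expression tables, by a rule that uses no measured value, although earlier results of these data were known when they were chosen. All 5 had a row and passed the filter on low counts. The panel was the Hybrid Mouse Diversity Panel (HMDP), a set of inbred and recombinant inbred strains, and each library came from the heart of 1 mouse. For all mice 8 weeks on chow were followed by 8 weeks on a diet rich in fat and sucrose, and hearts were taken at 16 weeks of age, so that diet and age were shared by every group. The groups were the 2 sexes and the strains, of which 78 had libraries of both sexes. Strains were sorted into the recombinant inbred families BXD (45 strains, 79 libraries), AXB/BXA (20 strains, 33 libraries), CXB (6 strains, 12 libraries) and BXH (6 strains, 8 libraries), and into 29 other inbred strains (55 libraries) that included the parents C57BL/6J, DBA/2J, A/J, BALB/cJ and C3H/HeJ. The BXD strains included BXD24/TyJ-Cep290<rd16>/J, whose label names an allele of Cep290.

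Haemoglobin is a tetramer of alpha and beta chains, each holding a haem group. In adult mice, alpha chains are made from the neighbouring genes Hba-a1 and Hba-a2, and beta chains from neighbouring genes that differ between strains in their number of distinct products, the classical single and diffuse haemoglobin types. C57BL/6J carries the single type, with Hbb-bs and Hbb-bt, and DBA/2J is a classical strain of the diffuse type. Alas2 encodes the red cell form of 5-aminolevulinate synthase, which carries out the first step of haem synthesis. Heart muscle does not make these transcripts in quantity, and in a whole-heart library they come mostly with the young red cells of the blood that stayed in the tissue. In such bulk samples fewer cells of a type and less RNA per cell cannot be told apart. The labels gave no haemoglobin type for any strain, so strains are described below by the measured ratio alone.

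On genome build GRCm38, Hbb-bs (ENSMUSG00000052305) lay at chr7:103826534-103828096 and Hbb-bt (ENSMUSG00000073940) at chr7:103812524-103813996, both on the minus strand. Hba-a1 (ENSMUSG00000069919) lay at chr11:32283511-32284465 and Hba-a2 (ENSMUSG00000069917) at chr11:32296489-32297298, both on the plus strand. Alas2 (ENSMUSG00000025270) lay at chrX:150547375-150570638 on the plus strand. Each globin gene had 3 exons. In the reference, which is C57BL/6J, the coding sequences of Hbb-bs and Hbb-bt (444 bases each) differed at 1 base, C417T, counted from the start codon with the Hbb-bs base first, and the encoded proteins differed at 0 residues. The coding sequences of Hba-a1 and Hba-a2 (429 bases each) likewise differed at 1 base, C381T, with the Hba-a1 base first and 0 differing residues. The 30 coding bases that hold each difference are shown, because they are the only coding place where reads of a pair could be told apart; the capital marks the differing base, and the stretches lay in the last exon.
Hbb-bs, chr7:103826683-103826712, minus strand: aaggtggtggctggagtggcCgctgccctg
Hbb-bt, chr7:103812674-103812703, minus strand: aaggtggtggctggagtggcTgctgccctg
Hba-a1, chr11:32284323-32284352, plus strand: gcggtgcatgcctctctggaCaaattcctt
Hba-a2, chr11:32297140-32297169, plus strand: gcggtgcatgcctctctggaTaaattcctt

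The remaining difference within a pair was in the noncoding parts of the transcripts. Of the stretches of 31 bases that make up each transcript, the word length kallisto uses by default, 33.1% of Hbb-bs and 40.6% of Hbb-bt occurred in no other gene, against 28.6% of Hba-a1 and 8.97% of Hba-a2. For Alas2 the share was 100%. The split of reads within a pair therefore rested on few bases of the C57BL/6J reference, and the alleles of other strains were not in that reference. The ratios below are ratios of estimates made on this reference, and what they owe to the alleles' sequence and what to their expression cannot be told apart.

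The promoters showed a different degree of likeness. In RefSeq (GRCm38.p6) all 5 genes had 1 promoter window each. Over the bases before the start, aligned without gaps at the best shift, Hba-a1 and Hba-a2 were 100% identical (247 bases compared). Hbb-bs and Hbb-bt were 51% identical in the same way (249 bases compared). An inserted or lost base would lower this value, and likeness with gaps allowed was not measured. The 30 bases around the CCAAT box, a classical element of globin promoters, are shown for the 4 genes. Those of the alpha pair are the same. Those of the beta pair differ at some bases, fewer in proportion than over the whole window. They lie before the start that RefSeq gives. The gene bounds of GENCODE given above reach further upstream, so they hold the stretches of Hba-a1 and Hbb-bs and a part of that of Hbb-bt. Capitals mark the letters CCAAT, its reverse complement ATTGG, and CACCC, another classical element.
Hbb-bs, chr7:103827995-103828024, minus strand: gagccaCACCCtggtaagggCCAATctgct
Hbb-bt, chr7:103813989-103814018, minus strand: gggtaaCACCCtggcATTGGCCAATctgct
Hba-a1, chr11:32283564-32283593, plus strand: gtagagcaagcacaaaccagCCAATgagaa
Hba-a2, chr11:32296381-32296410, plus strand: gtagagcaagcacaaaccagCCAATgagaa
The letters CCAAT on either strand matched 3 times in the Hbb-bt window and 1 time in each of the windows of Hbb-bs, Hba-a1 and Hba-a2, against 0 times in that of Alas2. Of 32851 promoter windows of the same length, 33.8% held CCAAT and 52% held CACCC, so a match is a description of the letters only.

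Depth ran from 29 M to 80.4 M estimated counts per library (M for mega), with a mean of 46.1 M. At this depth the globins were read by many counts in every library: the lowest counts were 1389 for Hba-a1, 5549 for Hba-a2, 5642 for Hbb-bs, 400 for Hbb-bt and 133 for Alas2. Cardiomyocyte markers were high throughout, with a summed level of Myh6, Actc1, Tnnt2, Tnni3, Myl2 and Ryr2 between 32791 and 70552 CPM (counts scaled to a library total of 1 M). Libraries of A/J, BALB/cJ and BXD14/TyJ stood apart because the male and the female of the strain lay on different sides in the beta-globin ratio. The tests of the 5 genes by sex and by strain and those of both ratios by family and by sex were also run without them. The main beta-globin values are given without them as well. The other tests were not run without them. The BXD14/TyJ libraries were also unlike each other elsewhere in the genome. Over 10469 genes on chromosomes other than 7, 11, X and Y, its male library ranked its own strain's female 21 of 89 and its female library ranked the male 27 of 98 by rank correlation. For 122 of the libraries with a partner of the other sex, the partner ranked 1, including both libraries of A/J and both of BALB/cJ.

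Total globin, the sum of the 4 genes, varied widely between libraries. It took 0.0337% of all counts in the female LP/J library, the lowest, and 3.31% in the female NON/ShiLtJ library, the highest, a range of 98-fold. The median was 0.270% and the quartiles were 0.183% and 0.451%. Only 13 libraries were above 1% of counts. The next highest libraries were the C3H/HeJ female (2.71%), the BXD14/TyJ male (2.36%) and the BXH20/KccJ male (2.16%).

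**Figure D1:**
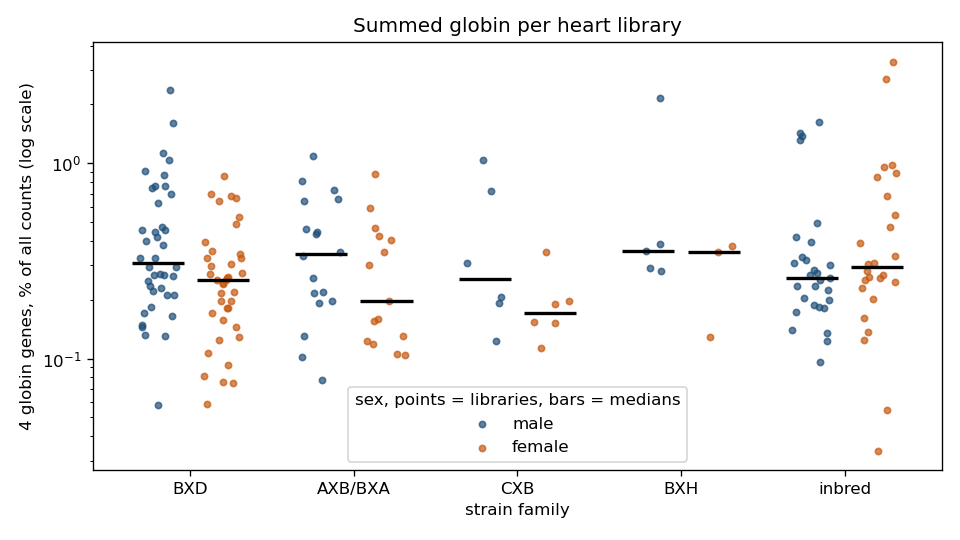
Summed counts of Hba-a1, Hba-a2, Hbb-bs and Hbb-bt as a percent of all counts in each library, on a log axis, by strain family and sex. Points are libraries and bars are medians. Every family spans a wide range with overlapping sexes, and the 2 extremes, 0.0337% and 3.31%, are both female libraries of the inbred strains.

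Per length, in TPM (transcripts scaled to a library total of 1 M), Hba-a2 and Hbb-bs were the most abundant of the 5 genes. Hba-a2 had 3717 ± 3835 TPM (mean ± SD over all libraries) and Hbb-bs 3696 ± 3850 TPM. In 90 libraries Hba-a2 was the highest and in the other 97 it was Hbb-bs. Hba-a1 had 1543 ± 2224 TPM. Hbb-bt, at 416 ± 530 TPM, was the lowest globin in every library. Alas2 had 27.6 ± 28.5 TPM.

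The 5 genes moved together from library to library. Over all libraries, log2 Alas2 followed log2 total globin with Pearson's r = 0.97 (Spearman's rho = 0.96), although Alas2 lies on another chromosome and shared no 31-base stretch with any globin. Alas2 had 1.15% ± 0.188 as many counts as the globins together (SD over all libraries). For the male minus female differences of the 78 strains, in which what a strain brings to both its mice drops out, r was 0.98 for Alas2 with total globin, 0.99 for Hbb-bs with Hbb-bt, 0.99 for Hba-a1 with Hba-a2, and 0.99 for Hba-a2 with Hbb-bs. Within a library these values share the total count by which they are scaled, and r across libraries is a description. Across libraries of all strains, Hbb-bs with Hbb-bt (r = 0.91) and Hba-a1 with Hba-a2 (r = 0.84) were less tightly tied than within strains.

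The 2 mice of a strain often differed in total globin. The median difference between the sexes of a strain was 2.01-fold, 40 of 78 strains differed by more than 2-fold, and BXD68/RwwJ differed the most, with 0.764% in the male and 0.0587% in the female, 13-fold. Male against female strain values of log2 total globin had r = 0.22 (rho = 0.24, n = 78). The parents differed in this. C57BL/6J had 0.284% and 0.204% in its males and 0.677% in its female, DBA/2J had 1.43% in the male and 0.263% in the female, A/J had 0.310% and 0.161%, BALB/cJ had 0.188% and 0.201%, and C3H/HeJ had 1.31% and 2.71%, the male first. Only C3H/HeJ was high in both of its mice among these parents. The strain means ran from LP/J, AXB6/PgnJ and BXD75/RwwJ, at 0.0337%, 0.101% and 0.102%, to NON/ShiLtJ, C3H/HeJ and BXH20/KccJ, at 1.90%, 2.01% and 2.16%. LP/J, AXB6/PgnJ and BXH20/KccJ had 1 library each and so no spread of their own, and neighbours in this order were not tested against each other.

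To ask whether strain mattered at all, strain terms were tested with sex in the model over the 78 strains with both sexes. All 5 genes differed between strains past an adjusted p of 0.05 (edgeR quasi-likelihood F test), against 72.1% of the 15890 genes tested, so the count does not set the globins apart. Hba-a1 had F = 3.13 (adjusted p = 1.2e-06) and Hbb-bt F = 2.41 (adjusted p = 0.000143). Hba-a2 (F = 1.98, adjusted p = 0.00244), Hbb-bs (F = 2.01, adjusted p = 0.00195) and Alas2 (F = 1.93, adjusted p = 0.00339) followed. As a description, the share of the spread that lay between strains (the intraclass correlation over 78 strains) was 0.21 for both Hba-a2 and Hbb-bs and 0.18 for Alas2, below the median of 0.31 over 13176 genes. It was 0.29 for Hbb-bt and 0.38 for Hba-a1, the globin gene of each pair with the lower level.

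The second question was sex, the study's own contrast. In the mean every gene was higher in males: Hbb-bs averaged 1880 ± 1712 CPM over the male and 1480 ± 1679 CPM over the female libraries, Hba-a2 1566 ± 1393 and 1309 ± 1498 CPM, Hba-a1 874 ± 1035 and 738 ± 1233 CPM, Hbb-bt 243 ± 257 and 196 ± 291 CPM, and Alas2 51.6 ± 46.9 and 42.4 ± 50.6 CPM (n = 98 males and 89 females). Every male range overlapped the female range. Only Hbb-bs passed the test, with a log2 fold change of 0.45 ± 0.16 (SE) and an adjusted p of 0.0309 by edgeR. Thus 1 of 5 genes was called, against 24.8% of 15942 genes tested (13.2% higher in males). The other 4 had log2 fold changes between 0.36 and 0.41 and adjusted p between 0.0788 (Alas2) and 0.181 (Hba-a1). The male was the higher library in 42 of 78 strains for Hbb-bs and in 39 to 44 strains for the other 4 genes. The call of Hbb-bs was lost with strain as a replicate block (log2 fold change 0.38, adjusted p = 0.0588), without A/J, BALB/cJ and BXD14/TyJ (0.39, adjusted p = 0.0664) and without the 10 libraries highest in total globin (0.30, adjusted p = 0.112).

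**Figure D2:**
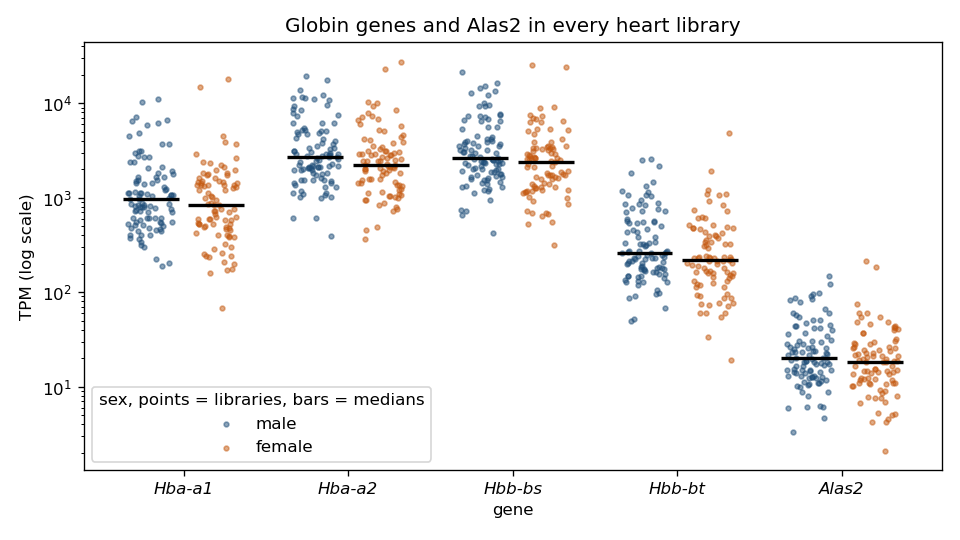
TPM of Hba-a1, Hba-a2, Hbb-bs, Hbb-bt and Alas2 in each of 98 male and 89 female libraries, on a log axis. Points are libraries and bars are medians. The male and female clouds overlap for every gene, and Hbb-bt is the lowest of the 4 globins in both.

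Family was the third question, asked in the male libraries with 1 value per strain. By edgeR, 0 of the 5 genes differed between families, against 20.6% of 17751 genes tested, and 0 of 5 had an unadjusted p under 0.05, against 34.8% of those genes. The same counts were 0 and 0 by limma on log2(TPM + 1), against 4684 and 8001 of the 17751 genes. Male strain means of total globin were 0.484% ± 0.448 in BXD (n = 40), 0.408% ± 0.279 in AXB/BXA (n = 18), 0.431% ± 0.366 in CXB (n = 6), 0.694% ± 0.819 in BXH (n = 5) and 0.425% ± 0.442 in the other inbred strains (n = 27). The BXH mean was lifted by the BXH20/KccJ male, and the BXH median was 0.354%. In the female libraries, tested as an alternative, 1 of the 5 genes was called, Hba-a1 (F = 6.34, adjusted p = 0.00267 by edgeR), against 14.5% of 18671 genes tested, and 4 of 5 had an unadjusted p under 0.05, against 26.9% of those genes. Its female level was 220 ± 63.9 CPM in CXB (n = 5) and 490 ± 356 CPM in BXD (n = 39), against 552 ± 363 CPM in AXB/BXA (n = 15), 520 ± 319 CPM in BXH (n = 3) and 1358 ± 2119 CPM in the other inbred strains (n = 26), where the median was 692 CPM and the highest strain had 9163 CPM.

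The composition of beta-globin, by contrast, was steady within strains. It was measured as the log2 ratio of Hbb-bs to Hbb-bt counts, which compares both genes within a library. As a description, the deviation of a library's ratio from the median of its side, low or high as defined in the next paragraph, had r = -0.37 (rho = -0.39) with log2 total globin, so the ratio tended to be lower in libraries with more globin. The ratio was 3.08 ± 0.52 over all libraries (SD), from 2.11 to 4.02, but few libraries lay near the mean. C57BL/6J had 2.61 and 2.66 in its males and 2.63 in its female. DBA/2J had 3.49 in the male and 3.95 in the female, and the parents did not overlap. In shares, Hbb-bt gave 13.9% of the beta-globin counts in C57BL/6J and 7.14% in DBA/2J (strain means).

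With the midpoint of C57BL/6J and DBA/2J, 3.18, as a dividing line, 86 libraries lay on the high side at 3.62 ± 0.16 and all others on the low side at 2.63 ± 0.19. The line was drawn after the ratios were seen, and the sides are a description with no test. Only 13 libraries lay within 0.25 of it. By strain mean, 56 strains were low and 50 high. The male and female of a strain differed by a median of 0.15, whereas the means of the sides lay about 1 log2 unit apart, with the highest low library at 3.12 and the lowest high library at 3.24, and male against female values had r = 0.90 (rho = 0.84, n = 78). The intraclass correlation was 0.89, higher than that of 97.9% of 13176 genes. Without A/J, BALB/cJ and BXD14/TyJ, whose means average mice on different sides, 55 strains were low and 48 high, r was 0.94 (rho = 0.86, n = 75) and the intraclass correlation was 0.93.

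**Figure D3:**
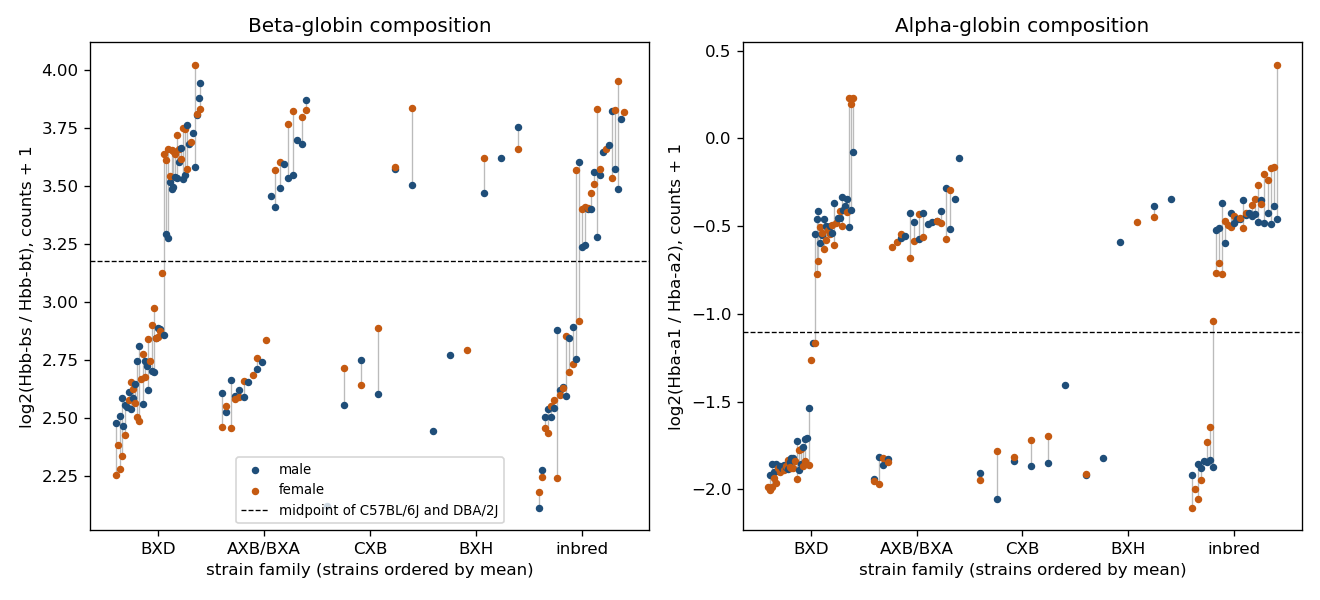
Left, log2 ratio of Hbb-bs to Hbb-bt counts, and right, log2 ratio of Hba-a1 to Hba-a2 counts, by family with the strains ordered by their mean. Points are values of a strain and sex, grey lines join the sexes of a strain, and the dashed line is the midpoint of C57BL/6J and DBA/2J. Values fall into a low and a high band in both panels, with the alpha values of CXB in the low band only.

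Each family held both beta-globin sides. Of the BXD strains, derived from C57BL/6J and DBA/2J, 25 were low and 20 high. Of the AXB/BXA strains, derived from A/J and C57BL/6J, 11 were low and 9 high. AXB19/PgnJ, AXB19a/PgnJ and AXB19b/PgnJ, whose names share a line number, were all low. Each was counted as a strain of its own, here and in the tests. In CXB, derived from BALB/c and C57BL/6 substrains, 4 were low and 2 high, and in BXH, derived from C57BL/6J and C3H/HeJ, 3 were low and 3 high. The other inbred strains divided into 13 low and 16 high, with A/J counted as low at a mean of 3.16 and BALB/cJ as high at 3.26, and into 12 low and 15 high without these 2. The low strain means lay at 2.66 ± 0.18 in BXD, 2.65 ± 0.10 in AXB/BXA, 2.55 ± 0.29 in CXB, 2.67 ± 0.19 in BXH and 2.59 ± 0.25 in the other inbred strains. The high strain means lay at 3.64 ± 0.15, 3.63 ± 0.12, 3.62 ± 0.06, 3.62 ± 0.08 and 3.57 ± 0.17 in the same order. The levels of a side were not tested between families. Family means of the ratio did not pass the test (F = 0.238, p = 0.916, permutation test over all strain means).

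Among the inbred strains, C57BLKS/J (2.61), C58/J (2.72), CE/J (2.49), KK/HlJ (2.56), MA/MyJ (2.77), NOD/ShiLtJ (2.53), RIIIS/J (2.56), SM/J (2.48) and SWR/J (2.81) sat on the low side with C57BL/6J. NON/ShiLtJ (2.11 in the male and 2.18 in the female) and SJL/J (2.28 and 2.25) had the lowest strain means among the inbred strains, although the RIIIS/J female (2.24) lay beside the SJL/J female. Hbb-bt made up 18.4% of the beta-globin counts in NON/ShiLtJ and 17.3% in SJL/J. High strains included AKR/J (3.79), BTBR T<+> tf/J (3.70), CBA/J (3.56), C3H/HeJ (3.43), FVB/NJ (3.40), NZW/LacJ (3.32), 129X1/SvJ (3.33) and LP/J (3.82). The highest strain means overall were AXB12/PgnJ (3.85), BXD34/TyJ (3.88) and BXD50/RwwJ (3.88), and the lowest was CXB7/ByJ, with 2.12 in its only library.

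Sex did not move the ratio past the test. The male minus female difference was -0.05 ± 0.24 (SD, n = 78 strains), with the male higher in 33 strains (p = 0.0543, permutation test with sign flips, two-sided). The difference was -0.06 ± 0.23 in BXD (n = 34), -0.04 ± 0.14 in AXB/BXA (n = 13) and -0.03 ± 0.32 in the other inbred strains (n = 24), and a test of the difference between these families did not pass (F = 0.109, p = 0.896, permutation test).

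In 3 strains the male and the female fell on different sides. A/J had 2.75 in the male and 3.57 in the female, BALB/cJ had 3.60 in the male and 2.92 in the female, and BXD14/TyJ had 2.86 in the male and 3.64 in the female. Neighbouring genes on chromosome 7 are shown for these libraries as a description. They were picked for their correlation with this same ratio over all strain means, so their parting of the sides is no separate evidence. Outside these strains Trim5, of a family of antiviral restriction factors, lay at 1.43 CPM or more in all 98 low libraries and at 0.592 CPM or less in all 83 high libraries. The A/J male had 1.07 CPM and the BALB/cJ female 0.691 CPM, between those ranges, whereas the A/J female (0.042 CPM) and the BALB/cJ male (0.287 CPM) had values at or below the high range's upper end. Trim12a was 4.68 CPM in the A/J male and 3.27 CPM in the BALB/cJ female, above the highest of the high libraries (1.07 CPM). Trim12a did not part the sides fully, with low libraries down to 0.368 CPM. Trim34b, which does not part the sides fully, lay within the range of the high libraries in both sexes of A/J (2.01 CPM in the male and 2.55 CPM in the female) and BALB/cJ (2.23 and 2.03 CPM), against 0.0391 to 0.306 CPM in C57BL/6J and 0 to 3.45 CPM in all low libraries. In the BXD14/TyJ male Trim5 was 0.124 CPM, in the range of the high libraries, while its beta-globin ratio was low and its total globin was among the 4 highest. Trim12a was 0.264 CPM in the BXD14/TyJ male, below every high library (lowest 0.324 CPM), and 1.22 CPM in the female, above their highest, and Trim34b was 1.25 CPM and 3.53 CPM, within the range of the high libraries. Thus the 3 strains did not show 1 common pattern. Their strain means are means of unlike libraries, and whether each of these libraries holds RNA of the labelled strain alone was not tested.

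The composition of alpha-globin, the log2 ratio of Hba-a1 to Hba-a2 counts, fell into sides of its own. C57BL/6J had -1.90 and -1.77 in its males and -1.64 in its female, and DBA/2J had -0.43 in the male and -0.51 in the female. With their midpoint, -1.10, as the line, again drawn after the values were seen, 80 libraries were low at -1.83 ± 0.16 and 107 high at -0.44 ± 0.20, and 4 lay within 0.25 of the line. Hba-a1 gave 23.1% of the alpha-globin counts in C57BL/6J and 42.0% in DBA/2J. The median difference between the sexes of a strain was 0.11, male against female values had r = 0.95 (rho = 0.78, n = 78), and the intraclass correlation was 0.94, higher than that of 99.2% of 13176 genes.

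The alpha-globin sides were spread unevenly over the families. In BXD 24 strains were low and 21 high, in AXB/BXA 4 and 16, in BXH 2 and 4, and among the other inbred strains 8 and 21. The 16 high AXB/BXA strains included AXB19/PgnJ, AXB19a/PgnJ and AXB19b/PgnJ, each counted as a strain of its own. All 6 CXB strains were low, as was the BALB/cJ male (-1.87), and the BALB/cJ female lay at -1.04, beside the line. BXD20/TyJ was the other strain whose sexes fell on different sides, with -0.55 in the male and -1.17 in the female. Over genes on other chromosomes, the BXD20/TyJ male ranked its own strain's female 4 of 89, and the female ranked the male 2 of 98. The other parents A/J (-0.60 in the male and -0.47 in the female) and C3H/HeJ (-0.48 and -0.20) were high. The strain means were -1.17 ± 0.71 in BXD, -0.75 ± 0.59 in AXB/BXA, -1.77 ± 0.19 in CXB, -0.93 ± 0.73 in BXH and -0.81 ± 0.66 in the other inbred strains, and families differed (F = 4.12, p = 0.00376, permutation test over all strain means). The difference held in males alone (F = 4.05, p = 0.0037) and females alone (F = 3.21, p = 0.013) by the same permutation test. Sex did not move the ratio past the test (male minus female -0.01 ± 0.24, n = 78, male higher in 41 strains, p = 0.748, permutation test with sign flips, two-sided). The lowest strain means were those of 129X1/SvJ (-2.01), LP/J (-2.0) and BXD5/TyJ (-1.99), and the highest those of BXD73/RwwJ (-0.11), RIIIS/J (-0.02) and BXD19/TyJ (0.08). The place of BXD73/RwwJ and RIIIS/J in this order came from their females (0.20 and 0.42), since their males lay at -0.41 and -0.46, within the range of the other high strains.

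The sides of the 2 pairs, which lie on chromosomes 7 and 11, occurred in every combination. By strain mean, 28 strains were high in both, 22 low in both, 22 high in beta and low in alpha, and 34 low in beta and high in alpha. Without A/J, BALB/cJ and BXD14/TyJ the numbers were 27, 22, 21 and 33. Among BXD strains they were 9, 13, 11 and 12. Over strain means the ratios had r = -0.11 (rho = -0.20, all strains), and within BXD r was -0.12 (n = 45). In the classical strains, C57BL/6J, C57BLKS/J and C58/J were low in both, and DBA/2J, C3H/HeJ, CBA/J, AKR/J and FVB/NJ were high in both.

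**Figure D4:**
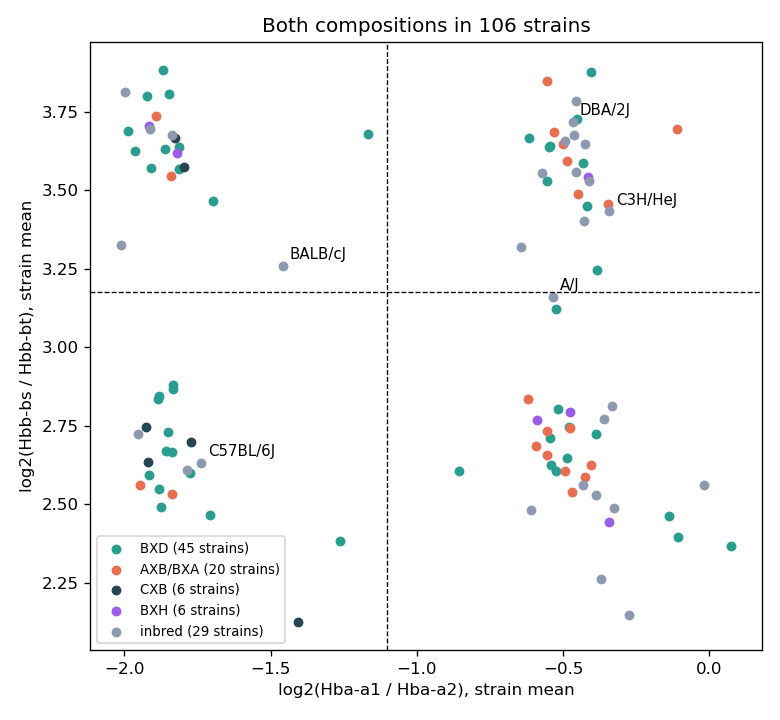
Strain means of the log2 ratio of Hbb-bs to Hbb-bt (vertical) against that of Hba-a1 to Hba-a2 (horizontal) for every strain, coloured by family, with dashed lines at the midpoints of C57BL/6J and DBA/2J. The strains form 4 groups, with 28 at the upper right and 22 at the lower left, and few strain means lie near the beta-globin line, among them A/J, BALB/cJ and BXD14/TyJ, which average sexes on different sides, and BXD38/TyJ (3.12), which had 1 library.

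Mice of the same strain and sex were close in composition. The C57BL/6J males differed by 0.05 in the beta-globin and 0.14 in the alpha-globin ratio, the MA/MyJ males by 0.08 and 0.05, and the CXB6/ByJ females by 0.21 and 0.15. Their total globin differed more: 0.284% and 0.204% in C57BL/6J, 0.300% and 0.200% in MA/MyJ, and 0.152% and 0.353% in CXB6/ByJ.

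In 5 libraries the alpha-globin counts exceeded the beta-globin counts by more than 1.5-fold, against a median ratio of 1.15 over all libraries. They were the BXD19/TyJ male (1.61), the RIIIS/J female (1.83), the BXD6/TyJ female (2.03), the CXB7/ByJ male (2.11) and the BXD73/RwwJ female (2.16). Their Alas2 counts were 0.626% to 0.718% of the globin counts, against a median of 1.18% in the remaining libraries, of which the lowest had 0.702%. All 5 had a low beta-globin ratio, between 2.12 and 2.48. Total globin was ordinary in them, at 0.157% to 0.307%. The share of mtDNA-encoded counts was 20.7% in the RIIIS/J female, the lowest of all libraries, 23.3% in the BXD73/RwwJ female and 33.7% to 45% in the other 3, and depth was 42.8 M to 64.2 M. Over all libraries the log2 alpha to beta ratio had r = -0.61 (rho = -0.40) with the log2 Alas2 share, a description of values that share the globin counts. Hba-a1 had more counts than Hba-a2 in 4 libraries, the females of BXD6/TyJ, BXD19/TyJ, BXD73/RwwJ and RIIIS/J, with 53.4% to 57.2% of the alpha-globin counts. Per length, in TPM, Hba-a1 was above Hba-a2 in 0 libraries.

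The genes most like each measure were found by Pearson's r over all strain means, among 13172 genes with at least 1 CPM on average. For the beta-globin ratio, 9 of the 10 genes with the largest absolute r lay on chromosome 7 within 10 Mb of the pair, where 1.18% of the genes were. The leading 5 were Trim genes 0.416 to 0.642 Mb away: Trim5 (r = -0.94), Trim30d (r = -0.89), Trim12a (r = -0.86), Trim34b (r = 0.85) and Trim34a (r = -0.83). To 2 decimals these 5 values were the same without A/J, BALB/cJ and BXD14/TyJ. Trim5 had r = -0.91 in males, -0.91 in females, -0.93 within BXD (n = 45) and -0.95 within AXB/BXA (n = 20). These genes are related members of 1 family, and how far reads could be shared among them was not measured. The others on chromosome 7 were Gvin1 (r = -0.77), Gm15506 (r = 0.73), Pgap2 (r = -0.68), which acts on GPI anchors, and Myo7a (r = -0.67), an unconventional myosin. The exception was Mrpl48-ps on chromosome 4 (r = 0.77, and 0.93 within BXD), a pseudogene whose parent gene Mrpl48 lies on chromosome 7, 3.20 Mb from the globins.

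For the alpha-globin ratio 9 of the 10 likewise lay within 10 Mb of the pair on chromosome 11, where 0.456% of the genes were. They were led by Fancl (r = 0.69), of the Fanconi anaemia DNA repair pathway, Ccdc85a (r = -0.66) and Mpg (r = 0.65), a DNA glycosylase gene that adjoins the alpha-globin locus at 0.0508 Mb. Gpr75 (r = 0.62) had r = 0.93 within BXD and 0.97 within AXB/BXA. Rtn4, Mtif2, Asb3, Snrnp25 and Erlec1 followed, with absolute r between 0.45 and 0.59. The exception was Hs3st1 on chromosome 5, a heparan sulfate sulfotransferase gene, with r = -0.63 over all strains, -0.95 within BXD and -0.98 within AXB/BXA. As background, strains of a family share long stretches of parental chromosome and are not independent, and these correlations carry no p.

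**Figure D5:**
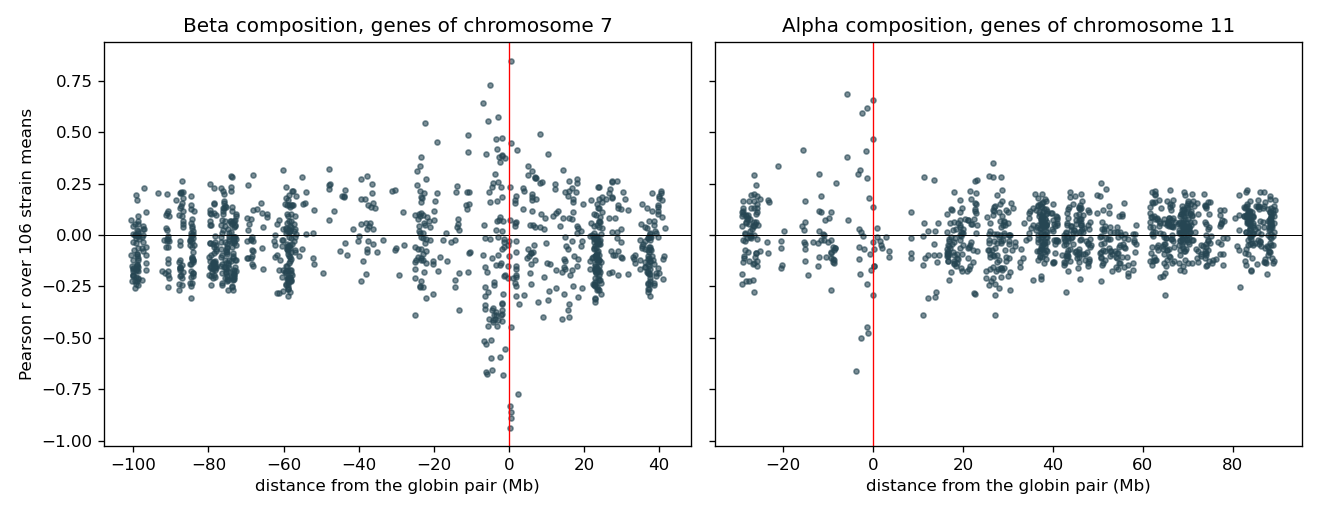
Pearson's r over all strain means between each gene's log2 CPM and the beta-globin ratio for 1028 genes of chromosome 7 (left) or the alpha-globin ratio for 1064 genes of chromosome 11 (right), against the distance in Mb from the globin pair (red line at 0). The largest absolute r, 0.94 on the left and 0.69 on the right, lie within 6 Mb of the pair.

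For total globin the most alike genes were not neighbours. Alas2 came first (r = 0.97), and the leading genes also included Tent5c (r = 0.95), Ube2l6 (r = 0.92), Mkrn1 (r = 0.90), Bpgm (r = 0.89), Slc4a1 (r = 0.87), Isg20 (r = 0.84), Cdr2 (r = 0.82) and E2f2 (r = 0.82). Bpgm makes the red cell's bisphosphoglycerate and Slc4a1 is the band 3 anion exchanger of the red cell membrane. The median absolute r over all genes was 0.07.

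Lists of genes around haemoglobin placed these values in the pathway. The embryonic and minor globins were close to 0: all 8 with a row were under the filter of the tests by sex and strain, and their summed level was at most 2.30 CPM in males and 3.51 CPM in females. Hbb-bh0 had 0 counts in every library, while Hbq1b averaged 0.156 CPM, Hbq1a 0.098 CPM, Hbb-bh1 0.0209 CPM and Hbb-y 0.00807 CPM. Myoglobin (Mb), the oxygen store of muscle, was at 7718 CPM with r = -0.04 to total globin, and cytoglobin (Cygb) at 55.6 CPM with r = 0.13. By sex, Mb was higher in males (log2 fold change 0.15, adjusted p = 0.00573) and Cygb in females (-0.13, adjusted p = 0.0082) by edgeR, whereas limma on log2(TPM + 1) called Cygb but not Mb. On that TPM scale the median log2 fold change over all genes was -0.08, against -0.01 in the edgeR test, and limma called 42.9% of 15942 genes higher in females and 1.47% higher in males, which bears on each limma call below.

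Of the 9 haem synthesis genes, Alas2 alone tracked total globin closely. The other abundant ones were Alas1, the form of the enzyme used outside red cells (139.1 CPM, r = -0.01), ferrochelatase (Fech, 112.8 CPM, r = 0.45) and Alad (70.7 CPM, r = 0.02). By sex, Fech was higher in males (log2 fold change 0.14, adjusted p = 0.000522 by edgeR), a call that limma on log2(TPM + 1) did not make. The median log2 fold change of the list was 0.06, against -0.01 over all genes tested. By strain 8 of 9 were called, against 72.1% of all genes.

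Reticulocyte genes, those that young red cells keep, moved with total globin as a list: the median r of the 12 tested was 0.80, against -0.00 over all 15942 genes tested. The 4 most abundant were Tfrc, the transferrin receptor (67.8 CPM, r = 0.04), Bnip3l, a mitophagy receptor (47.3 CPM, r = 0.67), Mkrn1 (26 CPM, r = 0.90) and Bpgm (24.6 CPM, r = 0.91). By sex edgeR called 0 of the 12, against 24.8% of all genes, with 4 at an unadjusted p under 0.05, against 35.7% of all genes. DESeq2 also called 0, and limma on log2(TPM + 1) called 1, Blvrb, higher in females, against 44.4% of all genes in either direction. Fam220a has a second identifier at the same place, which is not in these counts and was higher in males (log2 fold change 0.20, adjusted p = 0.000411 by edgeR). Of the red cell membrane genes 11 were tested, with a median r of 0.23. The most abundant were Ank1 (310 CPM, r = -0.02), Sptb (199 CPM, r = -0.09), Epb41 (119 CPM, r = 0.58) and Gypc (26.5 CPM, r = -0.10). By sex edgeR called 2 of 11, Epb41 and Ank1, both higher in males, against 13.2% of all genes, whereas limma on log2(TPM + 1) called 0, with 1 at an unadjusted p under 0.05. By strain 10 of 11 were called, against 72.1% of all genes. The erythroid regulators had a median r of 0.16 over the 5 tested. Zfpm1 (19.7 CPM, r = 0.16), Lmo2 (17.0 CPM, r = 0.16), Tal1 (4.97 CPM, r = 0.25) and Bcl11a (3.53 CPM, r = 0.07) were the highest, while Gata1 and Klf1, the defining factors of nucleated red cell precursors, averaged 0.0717 and 0.107 CPM and fell under the filter of the tests by sex and strain. In the test by family in males both passed the filter. There edgeR called 3 of 8 regulators, Zfpm1 (F = 8.48, adjusted p = 0.000202), Gata1 (F = 4.74, adjusted p = 0.0139) and Nfe2 (F = 4.15, adjusted p = 0.0256), against 20.6% of all genes, and not Klf1 (adjusted p = 0.561). By sex Zfpm1 was higher in males (log2 fold change 0.21).

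Markers of other blood and heart cells moved with total globin to differing degrees. For platelets all 5 genes were tested, with a median r of 0.46, and the summed level ran from 1.74 to 58.4 CPM in males and from 2.41 to 43.6 CPM in females. For white blood cells all 6 were tested, with a median r of 0.30, and the sums ran from 8.84 to 288 CPM in males and from 15.7 to 241 CPM in females. For the atrium the median r of 5 genes was 0.29, with sums of 42.7 to 4493 CPM in males and 22.7 to 5976 CPM in females, and the 6 cardiomyocyte genes had a median of -0.12. By sex, edgeR called 0 of 5 platelet, 0 of 6 white blood cell and 0 of 5 atrium genes, with 2, 0 and 1 at an unadjusted p under 0.05, against 24.8% and 35.7% of all genes. DESeq2 also called 0 in each, and limma on log2(TPM + 1) called 1 white blood cell gene, Ptprc, higher in females, and 0 of the others. By family in males edgeR called 4 of 5 platelet genes, Ppbp (adjusted p = 2.96e-06), Itga2b, Gp9 and Gp1bb, and 1 of 6 white blood cell genes, Cd79a, against 20.6% of all genes. Of the cardiomyocyte genes 1 was higher in females, Myh6 (log2 fold change -0.11, adjusted p = 0.00855 by edgeR), whereas limma on log2(TPM + 1) called 3 of the 6, Myh6, Myl2 and Tnni3, each higher in females. Thus the limma count lay near its share over all genes, 42.9%. The part of these cells in the globin levels was not tested.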

How the data were processed

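Heart mRNA of 187 mice was sequenced as paired reads by the authors, who quantified it with kallisto 0.46 against Ensembl 97 transcripts of GRCm38.p6. Estimated counts and TPM per gene were deposited. TPM is scaled by transcript length and to the same total in each library, and it is lowered for every gene where mtDNA-encoded transcripts take more of the library. kallisto shares reads of near-identical genes by estimation, and 34.1% of the estimated counts the authors deposited were not whole (tolerance 1e-06). Symbols were found in GENCODE M21 for 35856 of 36558 identifiers. Counts were rounded for the tests, and depth was 29 M to 80.4 M (M for mega). Intervals of depth cover counting error only.

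Members and gene lists were chosen with earlier results of these data known. Genes were filtered with filterByExpr, scaled by TMM and tested with edgeR 4.0.16 in R 4.3.3 (quasi-likelihood F test, Benjamini-Hochberg over all genes tested, threshold 0.05): by sex in all libraries, by strain with sex as a covariate in the 78 strains with both sexes, and by family in males with 1 value per strain. Dispersions in the strain models were the trended ones. Log2 ratios of counts (pseudocount 1) were averaged over the libraries of a strain and sex and then over the sexes. Family labels were permuted over strain means, and signs of the male minus female differences were flipped, 100000 times each, two-sided. In the tests each library is 1 mouse, and 3 pairs of strain and sex had 2 mice. DESeq2 1.42.0 and limma 3.58.1 were alternatives, as were RLE size factors, library totals, no filter, other pseudocounts, TPM and leaving out libraries.

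The genes named are the 5 members, up to 4 of each list by mean CPM (log2 CPM used a prior count of 2), list genes past the test, and the 10 genes with the largest absolute r for each measure, except that some genes the rule names are not reported here. Trim5, Trim12a and Trim34b were shown in single libraries, and 5 libraries with a high alpha to beta ratio were described, after their values were seen. Tests were run on simulated data first: edgeR recovered 98% of genes changed by 0.3 log2 between the sexes and 99% of those changed by 0.6, with 12 false calls among 15942 genes. Recovery at the spread of the 5 members was not tested. Their log2 fold changes by sex had standard errors from 0.16 (Hbb-bs) to 0.20 (Hba-a1) by edgeR. Sequences were read from GENCODE M21 transcripts and RefSeq promoters, and proteins were not analysed here beyond the translated coding lengths. The other software was matplotlib 3.10.9 for the figures, scipy 1.17.1, pandas 2.3.3 and numpy 2.4.6, under Python 3.11.15.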

Additional observations from a re-analysis of the deposited data

Results flagged for a closer look

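In the groups of 4 to 10 strains, 12 combinations of family, sex and measure were examined for a value far from the others, and chance alone marks about 1 in 20 such groups. In the CXB males, the Hba-a1 to Hba-a2 log2 ratio of CXB7/ByJ was -1.41, above the other 5 strains of that group. The same library had the lowest Hbb-bs to Hbb-bt ratio of all strain means and an alpha to beta ratio of 2.11. In the BXH males, total globin was 2.16% of counts in BXH20/KccJ, against 0.282% to 0.386% in the other 4 strains. Neither strain had a female library, so neither value could be compared with a second mouse.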

How the results depend on the processing

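The number of the 5 genes called by sex was 1 under RLE size factors, both limma fits and DESeq2, as in the main test. It was 0 under library totals, no filter on low counts, and library totals without mtDNA-encoded and globin genes. It was also 0 with strain as a replicate block, without A/J, BALB/cJ and BXD14/TyJ and without the 10 libraries highest in total globin, the last 2 chosen after seeing the data. Every gene had a higher fitted level in males in each of these 10 alternatives, and the adjusted p of Hbb-bs ran from 0.0208 to 0.112. By strain, all 5 genes were called in each of 4 alternatives; the fit with no filter was not run to completion. By family 0 were called, except 1 in the female libraries (Hba-a1), and leaving out each BXH male gave 0 throughout (lowest 0, highest 0). The cause of these changes was not tested. The beta-globin ratio by family and both ratios by sex stayed short of the test, and the alpha-globin ratio by family stayed past it, in every alternative run. The male minus female alpha-globin difference, -0.01, turned to 0.0391 with no replicate block (sex labels permuted over all libraries) and to 0.0025 without A/J, BALB/cJ and BXD14/TyJ, far from the threshold each time.

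Most strains gave 1 mouse per sex, so the spread within a strain also holds the sex difference. Counts of Hbb-bt, the lowest globin, were at least 400 per library, but these are estimates that share reads within a pair. How far depth limits the ratios was not tested. Ratios rest on the reference alleles of C57BL/6J.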
